A study of Homo sapiens with 4 samples.

Results

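Tetraspanin genes were examined in AGS, a widely used cell line from a human stomach adenocarcinoma, after exposure to lipopolysaccharide (LPS) of Helicobacter pylori. The members were the genes whose symbol is TSPAN followed by a number, together with CD9, CD37, CD53, CD63, CD81, CD82 and CD151. They numbered 28 of the 19775 genes measured and had 55 of the 41091 probe sets with 1 gene symbol. TSPAN19, which also fits the symbol rule, had no probe set in the annotation used. The family was chosen by symbol, and selected on the LPS minus untreated difference of TSPAN2, which stood out. That difference is therefore given as a description, and nothing is read from a test of it. Every other gene is represented by its brightest probe set, taken by the mean of the 4 arrays. All cells had their medium replaced and were harvested 8 h later, with 10 µg/ml H. pylori LPS in the new medium of the treated group (2 arrays) and fresh medium alone in the untreated group (2 arrays). The line is a single tumour line, the stimulus was the isolated glycolipid without bacteria, and 1 time was sampled. The design text speaks of 2 independent experiments, and nothing states that same-numbered arrays share one. The p-values of the LPS comparison treat the arrays as independent. They rest only on the spread between these arrays, with variance shared over all genes.

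Tetraspanins are small membrane proteins that cross the bilayer several times and gather integrins, immunoglobulin-like proteins, proteases and growth factor ligands into microdomains of the cell surface and of endosomes. They have no known enzymatic activity, and their effects on adhesion, shedding and vesicle traffic run through the partners they bind. In gastrointestinal epithelium CD9, CD63, CD81, CD151 and TSPAN8 are well known members, and CD63 and CD9 are used as markers of extracellular vesicles. TSPAN2 is best known from rodent oligodendrocytes, where it takes part in myelin formation.

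TSPAN2 was lower in LPS-treated cells on each of its 3 probe sets. The gene lies on chromosome 1 from 115048011 to 115089503 (GRCh38.p14). Its upstream sequence is shown because no other gene measured had a lower LPS minus untreated difference. Those of TSPAN15, the member next to it in that order, and of TSPAN16, a member on the positive side, are shown beside it. Each run is the 250 bases before the RefSeq start site, read 5′ to 3′ on the gene's strand (GRCh38.p14), and capitals mark the GC box letters GGGCGG on either strand, counted also where copies overlap. The windows are chr1:115089504-115089753 (minus strand), chr10:69451215-69451464 (plus strand) and chr19:11295910-11296159 (plus strand).
TSPAN2: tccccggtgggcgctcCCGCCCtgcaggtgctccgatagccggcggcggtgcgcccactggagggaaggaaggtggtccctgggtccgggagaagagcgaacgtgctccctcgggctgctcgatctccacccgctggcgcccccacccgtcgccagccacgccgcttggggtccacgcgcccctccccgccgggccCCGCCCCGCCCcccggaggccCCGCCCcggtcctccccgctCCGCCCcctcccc
TSPAN15: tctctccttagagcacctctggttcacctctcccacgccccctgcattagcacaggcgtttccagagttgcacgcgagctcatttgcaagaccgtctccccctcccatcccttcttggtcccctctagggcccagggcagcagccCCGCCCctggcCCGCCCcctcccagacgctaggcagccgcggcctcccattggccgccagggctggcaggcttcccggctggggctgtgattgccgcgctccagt
TSPAN16: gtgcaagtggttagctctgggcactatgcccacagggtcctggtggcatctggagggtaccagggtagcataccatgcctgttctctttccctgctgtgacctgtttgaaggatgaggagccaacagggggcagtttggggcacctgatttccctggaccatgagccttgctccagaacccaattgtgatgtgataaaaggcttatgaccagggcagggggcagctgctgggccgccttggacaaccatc
The TSPAN2 window held 5 GC boxes and was 79.2% G or C, with 30 CG dinucleotides. The TSPAN15 window had 2 GC boxes and 67.6% G or C, and that of TSPAN16 had 0 and 56.8%. These windows do not stand for the family. TSPAN12, which differed by -0.23, had 0 GC boxes and 50.8% G or C. TSPAN11, which differed by 0.16, had windows with 3 and 4 GC boxes and with 80% and 77.2% G or C. Whether GC boxes go with the difference was not tested. Of all 35116 such windows in the table, 4.15% held at least as many GC boxes as that of TSPAN2, and the median G or C content of all windows was 58%. Within the family, windows of TSPAN5 (10 GC boxes), TSPAN14 (6), TSPAN17 (6) and CD9 (6) held more than that of TSPAN2. These members differed by -0.06, -0.04, 0.00 and 0.02. RefSeq promoter windows were found for 20 of the 28 members, and 26 of their 40 windows (65%) held a GC box, against 42.6% of all windows. Genes with several start sites count several times in these shares. The letters CCAAT were in 7 of the 40 windows (17.5%, against 32.0% of all), TATAAA in 0 (10.7% of all), the E-box CACGTG in 3 (6.34% of all) and the AP-1 letters TGANTCA in 2 (6.57% of all), each searched on both strands. These letter matches are a description of the windows and no evidence of binding.

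On its brightest probe set (227236_at), TSPAN2 had log2 expression values of 6.62 and 6.29 in LPS-treated cells, against 7.40 and 7.04 in untreated cells. Both treated arrays lay below both untreated arrays, with a gap of 0.42 between the groups. The means were 6.46 ± 0.24 with LPS and 7.22 ± 0.25 without (SD, n = 2 each), a difference of -0.77 ± 0.17 (SE) on the log2 scale. In linear terms the signal with LPS was 58.8% of that in untreated cells, and the 95% interval of the ratio ran from 0.448 to 0.773. That interval takes no account of the choice of the gene on this value, so its stated coverage does not hold. Same-numbered arrays differed by -0.78 (number 1) and -0.75 (number 2). This is the difference for which the gene was chosen, and it ranked number 1 from the bottom among all 19775 genes.

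The other TSPAN2 probe sets were dimmer and differed less. Probe set 214606_at was at 4.47 and 4.14 in LPS-treated cells, against 4.71 and 4.63 in untreated cells, a difference of -0.37 ± 0.13 (SE). Probe set 227233_at was at 4.07 and 4.03 in LPS-treated cells, against 4.25 and 4.17 in untreated cells, a difference of -0.16 ± 0.08 (SE). The groups did not overlap on either. Both lay among the dimmest probe sets of the arrays, at the 12.9th and 7.24th percentile of brightness, where background makes up more of the signal. The brightest one stood at the 53.3rd. Over genes, each on its brightest probe set, TSPAN2 stood at the 44.1st percentile, below the median. The mean of the 3 probe sets differed by -0.43. The probe sets of a gene read the same RNA and are not replicates.

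**Figure D1:**
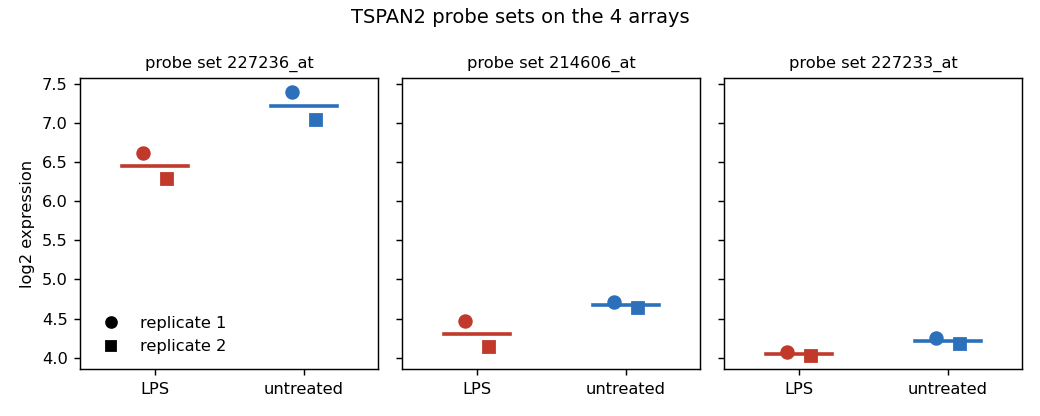
Log2 expression (vertical axis) of the 3 TSPAN2 probe sets in LPS-treated (left, red) and untreated cells (right, blue). Circles are the arrays numbered 1, squares those numbered 2 and lines the group means. The treated arrays lie below the untreated ones on every probe set, by -0.77, -0.37 and -0.16 in the mean.

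The other tetraspanins differed little between treated and untreated cells. Of the 27 members without TSPAN2, 13 had a difference below 0 and 14 above, with a median of 0.003 on the log2 scale. With TSPAN2 there were 14 on either side and the median was -0.002. Over all genes 43.5% lay below 0 and 56.5% above, and the median was 0.017. The split of the 28 by sign rests on single arrays: 7 members lay below 0 without LPS replicate 1, 20 without LPS replicate 2, 19 without untreated replicate 1 and 9 without untreated replicate 2. The difference was under 0.1 in size for 18 of the 27 and under 0.2 for 24. Of all 19775 genes, 12063 were under 0.1 and 17747 under 0.2. The median size was 0.06 over the 27, against 0.08 over all genes. For 26 of the 28, the 95% interval of the ratio lay within 1.5-fold on either side, as it did for 18882 of all 19775 genes. The exceptions were TSPAN2 and TSPAN15.

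The treated and untreated arrays did not overlap for 8 of the 28 members (28.6%), against 29.6% of all genes, so the share was near the background. TSPAN2, TSPAN12, TSPAN3 and TSPAN6 were the 4 on the lower side, where the background was 11.7%. On the upper side stood TSPAN8, TSPAN16, TSPAN11 and TSPAN9, against a background of 17.9%. With a difference of at least 1.5-fold added, 1 member was left, TSPAN2, and 0.0455% of all genes met that rule on the lower side and 0.00506% on the upper side. None of the 28 members passed limma's moderated test across all genes (0 called at an adjusted p of 0.05, with a background of 0%). At an unadjusted p under 0.05 there was 1 member, TSPAN2, against 2.83% of all genes. Nothing is read from these counts for TSPAN2, since its difference was the reason for the choice.

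**Figure D2:**
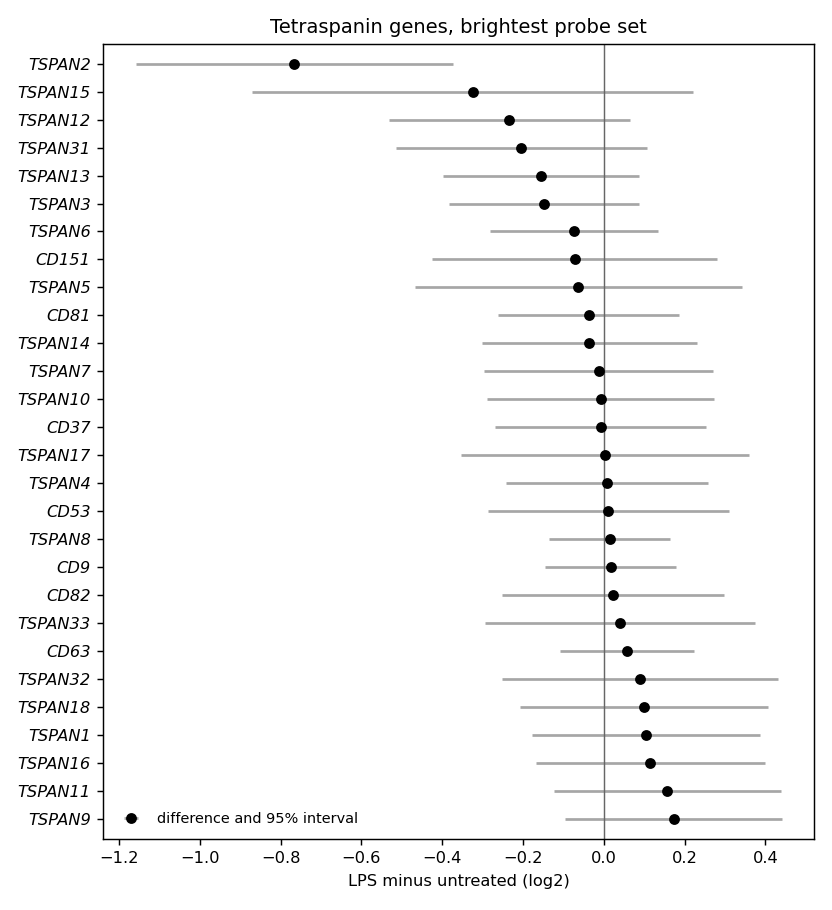
LPS minus untreated difference on the log2 scale (horizontal axis) of the 28 tetraspanin genes on their brightest probe set, with TSPAN2 at the top and TSPAN9 at the bottom. Points are the differences of the group means (2 arrays each) and lines the 95% intervals of the fit across all genes. TSPAN2 at -0.77 stands apart from the others, which run from -0.32 to 0.17.

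The widely expressed surface and endosomal members stayed within 0.1 of 0. CD9, which binds the membrane precursor of heparin-binding EGF-like growth factor and is required for fusion of egg and sperm in mice, was at 13.10 on both treated arrays, against 13.05 and 13.11 in untreated cells. CD63, a protein of late endosomes and lysosomes, was at 13.28 and 13.38 with LPS, against 13.25 and 13.30 without. The groups overlapped for both genes, with ratios of 1.01 (95% interval 0.905 to 1.13) for CD9 and 1.04 (0.927 to 1.17) for CD63. CD81, a receptor for hepatitis C virus, was at 12.68 and 12.85 with LPS, against 12.70 and 12.90 without. CD151, which binds laminin-binding integrins, was at 9.97 and 10.32 with LPS, against 10.07 and 10.37 without. On both of these genes each group held 1 low and 1 high array. The low ones were the arrays numbered 1, so the spread within a group exceeded the difference between groups. CD82, known as a metastasis suppressor, was at 7.64 and 7.74 with LPS, against 7.61 and 7.72 without. Its other probe set differed by -0.13 where the brightest differed by 0.02.

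The members that bind the protease ADAM10 and steer it to its substrates, known as the TspanC8 group, are TSPAN5, TSPAN10, TSPAN14, TSPAN15, TSPAN17 and TSPAN33. On their brightest probe sets the median difference was -0.02, and 0 of the 6 had arrays without overlap, where 29.6% of all genes did. Dimmer probe sets of TSPAN5 (-0.19), TSPAN14 (-0.10) and TSPAN10 (0.03) did not overlap. A further TSPAN5 probe set (0.03) and the dimmer one of TSPAN17 (0.07) did. TSPAN15, which promotes cleavage of N-cadherin by ADAM10, had 8.28 and 9.07 in LPS-treated cells, against 8.90 and 9.10 in untreated cells. LPS replicate 1 was low and the other 3 arrays were close together. The difference of -0.32 ± 0.23 (SE) therefore rested on that array: leaving out LPS replicate 1 gave 0.07, and leaving out LPS replicate 2 gave -0.72. One probe set measured the gene. TSPAN5 was at 7.53 and 7.04 with LPS, against 7.42 and 7.28 without, so that both groups overlapped around a difference of -0.06. TSPAN5 differed by 0.18 without LPS replicate 2 and by -0.31 without LPS replicate 1. TSPAN14, TSPAN10, TSPAN17 and TSPAN33 differed by -0.04, -0.01, 0.00 and 0.04. ADAM10 itself was at 12.55 and 12.47 in treated cells, against 12.57 and 12.45 in untreated cells.

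TSPAN12, which acts with the receptor FZD4 in Norrin signalling of retinal vessels, had 7.98 and 7.88 in LPS-treated cells, against 8.27 and 8.05 in untreated cells. The groups did not overlap, by a difference of -0.23 ± 0.13 (SE). Its other 2 probe sets differed by 0.10 and 0.15 in the opposite direction, and the mean of all 3 differed by 0.004. FZD4 was at 6.46 and 6.82 with LPS, against 6.47 and 6.62 without.

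Among the remaining members the largest negative differences belonged to bright probe sets. TSPAN31, a gene amplified in sarcomas, was at 10.01 and 9.91 in treated cells, against 10.34 and 10.00 in untreated cells. The difference of -0.20 ± 0.13 (SE) came mostly from untreated replicate 1, without which it was -0.03, and the other TSPAN31 probe set differed by -0.03. TSPAN13 was at 11.78 and 11.99 with LPS, against 12.12 and 11.96 without, a difference of -0.16 ± 0.10 (SE) with overlap. Leaving out LPS replicate 1 gave -0.05 for TSPAN13, and leaving out LPS replicate 2 gave -0.26. TSPAN3 was at 11.51 and 11.74 with LPS, against 11.79 and 11.76 without, so that LPS replicate 1 alone stood low, and without it the difference was -0.03. Its difference was -0.15 ± 0.10 (SE), and the 4 dimmer TSPAN3 probe sets ran from -0.15 to 0.03. TSPAN6, which restrains antiviral signalling through MAVS, differed by -0.07 and by -0.10 on its other probe set, without overlap on either.

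On the positive side stood TSPAN9, a platelet tetraspanin, with 7.87 and 7.94 in LPS-treated cells, against 7.70 and 7.77 in untreated cells. Its difference of 0.17 ± 0.12 (SE) was the highest of the 28, and its other probe set differed by 0.09, again without overlap. TSPAN11 was at 6.69 and 6.85 with LPS, against 6.65 and 6.57 without, a difference of 0.16 ± 0.12 (SE). TSPAN16 was at 7.34 and 7.52 with LPS, against 7.31 on both untreated arrays. Its difference was 0.12 ± 0.12 (SE), with other probe sets at -0.01 and 0.21. The tumour-linked epithelial members TSPAN1 and TSPAN8 differed by 0.10 and 0.01. TSPAN8 was at 13.48 and 13.47 in treated cells and 13.46 on both arrays of untreated cells, and its 95% interval of the ratio, 0.911 to 1.12, was the narrowest of the family in log2 terms. TSPAN4, TSPAN7 and TSPAN18 differed by 0.01, -0.01 and 0.10. TSPAN7, a gene of neurons linked to X-linked intellectual disability, stood at the 16.5th percentile of brightness over genes.

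CD37, CD53 and TSPAN32, known mainly from blood cells, differed by -0.01, 0.01 and 0.09. CD53 was at 7.91 and 8.13 with LPS, against 7.96 and 8.06 without, above the gene median of untreated cells (7.24), while its other 2 probe sets lay at 4.32 to 4.80 over all arrays. CD37 and TSPAN32 lay below that median. All 6 leukocyte markers measured, of 8 listed, also lay below median brightness, and their summed log2 values were 35.0 and 36.1 in treated cells, against 35.6 and 36.1 in untreated cells. PTPRC, the pan-leukocyte marker, was at 4.86 and 5.00 with LPS, against 5.16 and 5.07 without. All 7 epithelial markers lay above the median, with sums of 83.7 and 84.3 in treated cells, against 83.7 and 84.4 in untreated cells. Of the 8 fibroblast and endothelial markers, 7 lay below the median and COL1A1 above, with sums of 47.7 and 48.6 in treated cells, against 47.5 and 48.0 in untreated cells. Their difference was above 0 for 7 of 8 (56.5% of all genes), and for 4 the treated arrays lay above the untreated ones without overlap (17.9% of all genes). The part of other cell types in any difference was not tested. Brightness on different probe sets does not rank the amounts of different transcripts.

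Of the 18 members with more than 1 probe set, 5 had every probe set below 0, 5 had every one above 0 and 8 had probe sets that disagreed in sign. The 5 with every probe set below 0 were TSPAN2, TSPAN6, TSPAN14, TSPAN31 and CD37. Above 0 on all were CD9, TSPAN4, TSPAN9, TSPAN17 and TSPAN18. Over the settings tried that give 1 value per gene, 11 of the 28 members kept the sign of their difference, 5 below 0 (TSPAN2, TSPAN3, TSPAN6, TSPAN13 and TSPAN31) and 6 above (CD63, TSPAN1, TSPAN8, TSPAN9, TSPAN11 and TSPAN16). The settings were not the same for all. TSPAN2 and TSPAN11 fell to the brightness filter, and TSPAN31 had only _s_at probe sets. Averaging cannot change a gene with 1 probe set. The share of all genes that kept their sign was not counted. With quantile normalization TSPAN10 alone turned, between values of 0.01 in size on either side of 0.

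**Figure D3:**
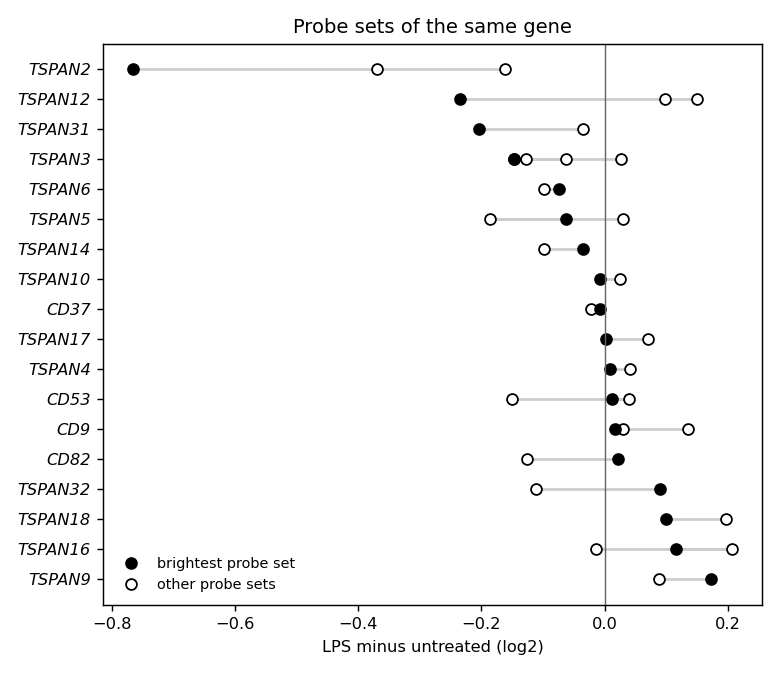
LPS minus untreated difference on the log2 scale (horizontal axis) for each probe set of the 18 tetraspanin genes with more than 1. Filled points are the brightest probe set of a gene, open points its others. The 3 of TSPAN2 lie to the left of 0, while those of TSPAN12 run from -0.23 to 0.15.

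Members also varied between arrays of the same treatment. In a fit with treatment held, the arrays numbered 1 minus those numbered 2 gave a median of -0.08 over the 28 members and -0.04 over all genes, and 22 members lay below 0, where 62.2% of all genes did. None of the members passed the adjusted test (limma, adjusted p from 0.213 to 0.973, with a background of 0%), and 10 of 28 had an unadjusted p under 0.05, where 18.1% of all genes did. TSPAN15 differed by -0.49 ± 0.14 (SE), CD151 by -0.32 ± 0.07 and TSPAN5 by 0.32 ± 0.11. TSPAN2 differed by 0.35 ± 0.09 (SE). That its difference by treatment is larger follows in part from the choice of the gene on that value. For 19 of the 28 members the difference by number was larger in size than that by treatment, against 59.9% of all genes. Which technical or culture step the number marks is not stated in the labels.

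**Figure D4:**
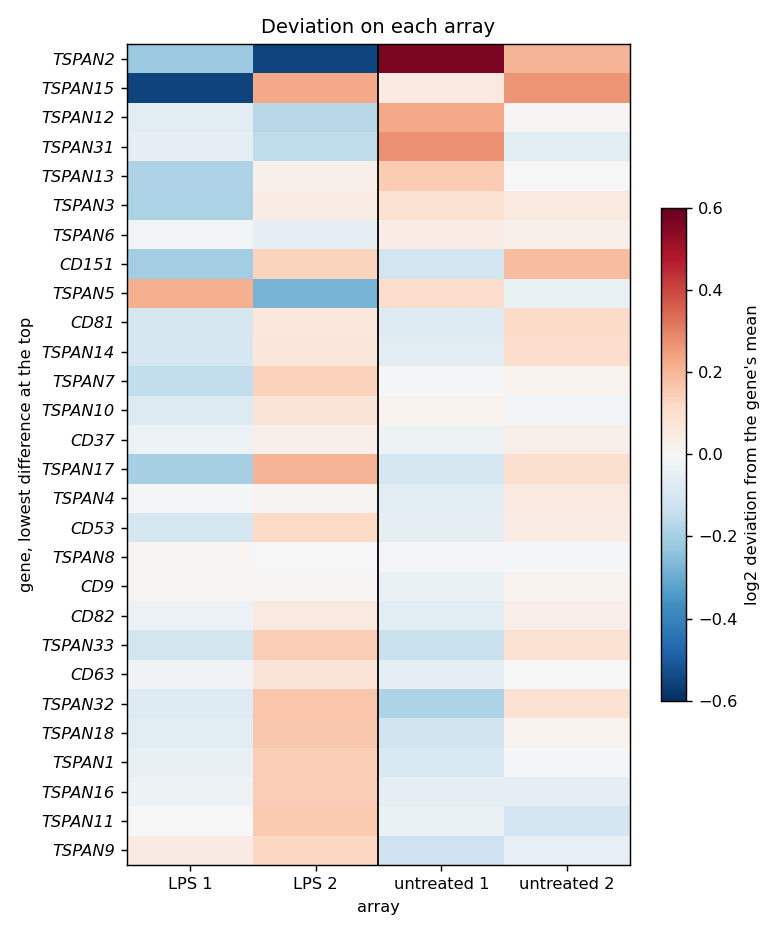
Deviation of each tetraspanin gene (rows) from its own mean over the 4 arrays, in log2 units, with red above and blue below the mean. TSPAN2, the top row, is low on both LPS arrays and high on both untreated arrays, while in the TSPAN15 row the LPS array numbered 1 stands apart from the other 3.

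**Figure D5:**
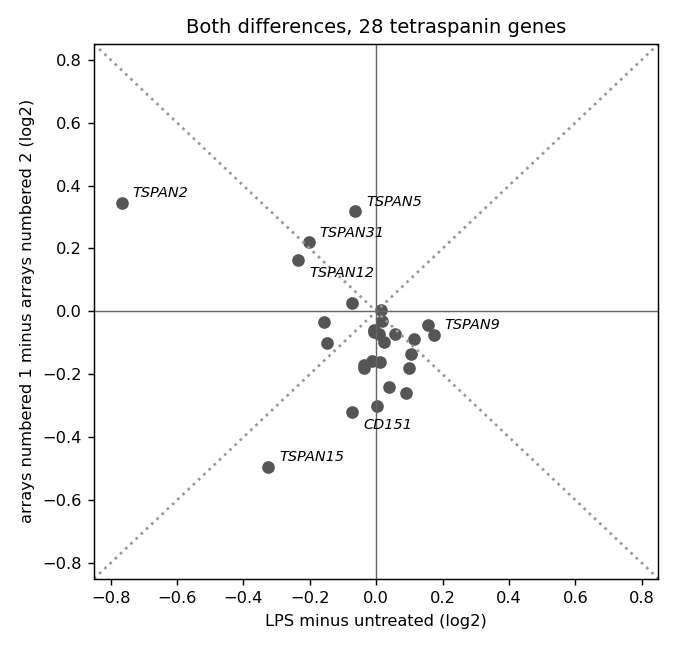
LPS minus untreated difference (horizontal axis) against the difference of the arrays numbered 1 minus those numbered 2 (vertical axis), both log2, for the 28 genes. Dotted diagonals mark equal size. For 19 genes, among them TSPAN15 at -0.32 and -0.49, the difference by number is the larger, and TSPAN2 at -0.77 and 0.35 lies on the other side.

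The members lie on 11 chromosomes, with 6 each on chromosomes 11 and 12. Some are close neighbours on chromosome 11 (GRCh38.p14). CD151 ends 4.02 kb before TSPAN4 starts, TSPAN32 lies 58.0 kb before CD81, and CD82 lies 106 kb before TSPAN18. These neighbours differed by -0.07 and 0.01, by 0.09 and -0.04, and by 0.02 and 0.10 in the same order. CD53, the member nearest to TSPAN2 on chromosome 1, differed by 0.01.

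Proteins that tetraspanins bind or carry were described from a list of 40 measured genes. None passed the test over all genes (limma, 0 called at an adjusted p of 0.05, against a background of 0%), and 2 had an unadjusted p under 0.05, ITGA4 and ITGAV, where 2.83% of all genes did. The list had 18 genes below 0 and 22 above, with a median of 0.02, against 0.02 over all genes. ITGAV, the integrin alpha V chain, was at 11.50 and 11.45 in treated cells, against 11.79 and 11.61 in untreated cells, a difference of -0.22 ± 0.10 (SE, limma, adjusted p = 1). The leukocyte integrin gene ITGA4 was at 5.24 and 5.26 with LPS, against 5.52 and 5.69 without, and differed by -0.36 ± 0.11 (SE, limma, adjusted p = 1). That probe set is dim and can share signal between genes, and without such probe sets ITGA4 differed by -0.04. The other ITGA4 probe sets ran from -0.04 to 0.19. ITGB4, the integrin beta chain of hemidesmosomes, differed by 0.26 ± 0.13 (SE), and values of 0.05 to 0.18 came from its other probe sets. TIMP1, an inhibitor of matrix metalloproteinases that binds CD63, differed by 0.16 ± 0.08 (SE) and PTPRC by -0.19 ± 0.10, with PTPRC at 0.03 where probe sets that can share signal were left out. EGFR, the epidermal growth factor receptor gene, differed by 0.23 ± 0.13 (SE), by 0.06 without LPS replicate 1 and by 0.40 without LPS replicate 2, and its dimmer probe sets ran from -0.09 to 0.17. The adjusted p was 1 for ITGB4, TIMP1, PTPRC and EGFR (limma). The list's integrin chains ITGB1, ITGA3 and ITGA6, partners of CD151 and CD9, differed by -0.00, 0.02 and -0.06, and the immunoglobulin-like partners IGSF8 and PTGFRN by 0.02 and 0.12.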

How the data were processed

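Gene expression was measured on 4 single-channel Affymetrix arrays of AGS cells. The deposited table holds log2 values per probe set, normalized by the authors. MAS5 and RMA are named, per the submitters' processing notes, with no role or version, and the background settings are not given in the sources used here. The values have the form of RMA output, which compresses differences of dim probe sets. Detection calls were not used here, and the number of arrays limits the precision. Probe sets were named through the platform annotation: 41097 had 1 symbol, 1801 several and 11777 none, and 41043 of the first were found by gene number in a current gene table, with 0 symbols changed. Control probe sets were left out.

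The deposited values were compared by limma's moderated two-sided test (version 3.58.1, run in R 4.3.3), with a mean-variance trend and no covariate. P-values were adjusted by Benjamini-Hochberg over 19775 genes, with a threshold of 0.05. SE and 95% intervals come from that fit. The difference by replicate number came from the fit with treatment and number as terms. For a single gene, exact permutation of 2 and 2 arrays reaches a p of 0.333 at best. Members and lists, the partner list included, were chosen with earlier results of these data known. Genes named in full were TSPAN2, the 8 other members with the largest differences, members without overlap of at least 0.3, the 4 members with the largest difference by number and 6 partners by moderated statistic. Other members are given by value within their group, and ADAM10, FZD4, ITGB1, ITGA3, ITGA6, IGSF8 and PTGFRN as known partners, all outside that rule and chosen with values in view. Promoter windows came from RefSeq (GRCh38.p14).

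The LPS comparison was tested on simulated data, 20 sets of 4 arrays in which 200 of 19775 genes were shifted. Shifts of 1.5-fold were called in 26.6% of cases, of 2-fold in 90.5% and of 3-fold in 99.4%. The simulated noise was independent between arrays, and shifts of 1.5, 2, 3 and 4-fold were mixed in each set. In the deposited arrays same-numbered deviations correlated (r = 0.44), and the highest difference of any gene, 1.21 on the log2 scale, was not called. The shares therefore do not give the power of the real comparison. The alternatives comprised quantile normalization, leaving out genes below median brightness, averaging a gene's probe sets, dropping those ending in _x_at or _s_at, no trend, a replicate block, a test per probe set, and each array left out.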

Additional observations from a re-analysis of the deposited data

How the results depend on the processing

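The count of tetraspanin genes and of partner genes past the adjusted threshold was 0 under every alternative tried (limma). Over all genes, the fits that leave out 1 array called 0 to 2 genes higher and 0 to 14 lower, with every call in the fit without LPS replicate 2. The same fits gave 7 to 20 tetraspanins below 0, a tetraspanin median of -0.071 to 0.069, a TSPAN2 difference of -0.95 to -0.59 and a partner median of 0.00076 to 0.057. With a test per probe set, 28 of 55 tetraspanin probe sets lay below 0. TSPAN2 differed by -0.43 with the mean of its probe sets and did not enter the test with the filter at median brightness. The partner median was 0.030 with quantile normalization and 0.043 without _x_at and _s_at probe sets, where PTPRC turned to 0.033. Of 260 values of the other members over the alternatives, 255 moved by at most 1 SD between replicates and 5 by more. Most could not have moved further. Leaving out 1 array cannot shift a difference by more than this SD. Dropping the trend, adding a block or filtering by brightness leaves the difference of a gene as it was. The 5 came from averaging probe sets or dropping those ending in _x_at or _s_at. The count is therefore no measure of stability. With a replicate block, the counts past the threshold stayed at 0 higher and 0 lower genes over all genes, 0 tetraspanins and 0 partners. The TSPAN2 difference of -0.77 is the same with a block by construction, since each number occurs in both groups. The deviations of same-numbered arrays from their group means correlated at r = 0.44 over genes, which are not independent, but the labels do not state a pairing. With 2 arrays a group, small differences of dim probe sets cannot be told from background.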

Other observations

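Genes of the tetraspanin fold that carry other names lay above 0 on their brightest probe sets, 4 of 4 with a median of 0.13, where 56.5% of all genes lay above 0, and all lay below median brightness. PRPH2, a photoreceptor disc protein, was at 6.64 and 6.50 in LPS-treated cells, against 6.23 and 6.28 in untreated cells, a difference of 0.31 ± 0.12 (SE) that did not pass over all genes (limma, adjusted p = 1). ROM1, its partner in photoreceptors, was at 6.10 and 5.97 with LPS, against 5.90 and 5.91 without. UPK1A, a protein of the urothelial plaque, was at 5.38 on both treated arrays, against 5.22 and 5.28 in untreated cells. UPK1B, another plaque protein, was at 5.98 and 6.05 with LPS, against 6.09 and 5.92 without, so its groups overlapped.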
